A study of Mus musculus with 8 samples.

Results

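The neutrophil granule genes measured here were the 10 table rows named S100a8, S100a9, Camp, Ngp, Ltf, Chi3l3, Mpo, Elane, Prtn3 and Ctsg, out of 23467 genes kept. All 10 were found, and all 10 passed the filter for testing, an average over the 8 libraries of 1 RPKM (reads per kilobase, scaled to library size) or more. The libraries were RNA-seq of cells cultured from the livers of E14.5 mouse embryos on a mixed B6;129 background. Control embryos were labelled wild type, and L1L2_Alb embryos were Lats1-/-;Lats2f/fl;Alb-cre. Lats1 is therefore absent from every L1L2_Alb cell, blood cells included, whereas Lats2 is deleted only in cells in which albumin-driven Cre recombinase is active, which are liver epithelial cells and not granulocytes. Each genotype was profiled as hepatoblasts on collagen (iHB), as cultures given Oncostatin M at 12.5 ng/ml for 5 days towards hepatocytes (iHP), and as cultures kept on Matrigel for 14 days towards biliary epithelial cells (iBEC). There was 1 control library per stage, 1 L1L2_Alb iHB library, and 2 L1L2_Alb libraries each for iHP and iBEC. The labels do not say whether the 2 libraries of a pair came from separate embryos, so the spread between them may be technical.

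Neutrophils store their antimicrobial proteins in granules that are filled in sequence as the cell matures in the marrow or, before birth, the liver. Promyelocytes make the early (primary, or azurophil) granule enzymes: Mpo encodes myeloperoxidase, which produces hypochlorous acid, and Elane, Prtn3 and Ctsg encode the serine proteases neutrophil elastase, proteinase 3 and cathepsin G. Later precursors make the secondary and tertiary granule proteins: Camp encodes the cathelicidin antimicrobial peptide, Ltf the iron-binding lactoferrin, Ngp the neutrophilic granule protein, and Chi3l3 the chitinase-like protein Ym1, which macrophages can also make. S100a8 and S100a9 encode the calcium-binding subunits of calprotectin, which fills the cytosol of neutrophils rather than their granules and is also made by monocytes. Ltf is made by secretory epithelia as well. The fetal liver is a site of blood formation, so granulocyte precursors lie among the hepatoblasts at this age.

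The members' summed level differed widely within the L1L2_Alb iHP and iBEC pairs, and this bears on every comparison. The 10 genes together took 1.10% of the recovered reads in control iHB, 0.766% in control iHP and 0.269% in control iBEC. In L1L2_Alb they took 0.407% in iHB, 0.0378% and 0.00611% in iHP libraries 1 and 2, and 0.0148% and 0.226% in iBEC libraries 1 and 2. The 3 lowest libraries were thus L1L2_Alb iHP 1, L1L2_Alb iHP 2 and L1L2_Alb iBEC 1, while L1L2_Alb iBEC 2 lay near control iBEC. In RNA from a whole culture, fewer cells of a type and less RNA per cell cannot be told apart. Libraries held between 18436865 and 33229075 reads as recovered from the deposited values, and the hepatoblast gene Afp, encoding alpha-fetoprotein, was present in all 8.

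The early granule genes were present in every control library. Mpo was at 297 RPKM in control iHB, 225 in control iHP and 92.2 in control iBEC. In L1L2_Alb, Mpo was at 155 RPKM in iHB, 4.52 and 0.166 in the iHP libraries, and 1.43 and 30.8 in the iBEC libraries. Every L1L2_Alb library was below the control of its own stage, but L1L2_Alb iHB was above control iBEC, so the genotypes overlapped between stages. Elane was at 120 RPKM in control iHB, 74.2 in control iHP and 55.8 in control iBEC. Its L1L2_Alb levels were 79.1 RPKM in iHB, 1.71 and 0 in the iHP libraries, and 0.546 and 24.4 in the iBEC libraries. The 0 of L1L2_Alb iHP 2 means that no read was recovered, and with a floor of 3 reads in that library the level of Elane was at least 485-fold lower than in control iHP. Ctsg was at 80.2, 66.8 and 38.5 RPKM in control iHB, iHP and iBEC. In L1L2_Alb, Ctsg was at 67.2 RPKM in iHB, 1.57 and 0.328 in iHP, and 0.501 and 9.21 in iBEC.

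Prtn3 departed from its neighbours in the lowest libraries. Prtn3 was at 154, 99.8 and 78.9 RPKM in control iHB, iHP and iBEC, and at 117 RPKM in L1L2_Alb iHB. In the L1L2_Alb pairs, Prtn3 was at 3.47 and 7.45 RPKM in iHP and at 11.1 and 36.8 RPKM in iBEC. It was the 1 member of 10 that was higher in L1L2_Alb iHP 2 than in iHP 1. Prtn3 had 154 reads in L1L2_Alb iHP 2, where Mpo had 9, Ctsg 7 and Elane 0. Prtn3 and Elane are adjacent on chromosome 10, and the table does not show which part of a gene the reads fell on.

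In control iHB and control iHP, each late granule gene had a higher RPKM, a level per length, than each early one. Ngp was at 1397 RPKM in control iHB, 1017 in control iHP and 151 in control iBEC. In L1L2_Alb, Ngp was at 598 RPKM in iHB, 38.4 and 0.566 in iHP, and 4.83 and 195 in iBEC. L1L2_Alb iBEC 2 was above control iBEC for this gene. Camp was at 409, 286 and 27.9 RPKM in control iHB, iHP and iBEC. In L1L2_Alb, Camp was at 106 RPKM in iHB, 6.07 and 0.157 in iHP, and 0.839 and 34.5 in iBEC. The lowest of these values rested on 2 reads, and against the 4792 reads of control iHP it was 1824-fold lower with a 95% counting interval of 505 to 15065. Ltf was at 361, 299 and 27.6 RPKM in the controls, in the same order. In L1L2_Alb, Ltf was at 109 RPKM in iHB, 9.46 and 0.428 in iHP, and 6.07 and 43.3 in iBEC. In L1L2_Alb iBEC 1, Ltf kept 22.0% of its control iBEC level, whereas Camp kept 3.00% and Ngp 3.20%.

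Chi3l3 was spread over the narrowest range of the late genes. Chi3l3 was at 1059, 707 and 488 RPKM in control iHB, iHP and iBEC. In L1L2_Alb, Chi3l3 was at 515 RPKM in iHB, 69.5 and 20.9 in iHP, and 45.2 and 487 in iBEC. L1L2_Alb iBEC 2 and control iBEC differed by less than counting error, with a ratio of 0.997 and a 95% counting interval of 0.978 to 1.02. Chi3l3 has a near-identical relative, Chi3l4, and the counting could have split reads between them, so values of both are uncertain. Chi3l4 was at 32.8, 98.6 and 72.4 RPKM in control iHB, iHP and iBEC, and at 14.1 RPKM in L1L2_Alb iHB. In the L1L2_Alb pairs it was at 0.539 and 0.155 RPKM in iHP and at 0.972 and 64.9 RPKM in iBEC.

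S100a9 had the highest RPKM of all 23467 genes in control iHB, at 7494, and ranked 9 in control iHP, at 5040. It was at 1617 RPKM in control iBEC. In L1L2_Alb, S100a9 was at 1850 RPKM in iHB, 236 and 24.1 in iHP, and 49.1 and 1269 in iBEC. In L1L2_Alb iHP 2 its rank was 3877. S100a8, its partner, ranked 5 in control iHB at 4433 RPKM and was at 2904 and 1218 RPKM in control iHP and iBEC. In L1L2_Alb, S100a8 was at 1705 RPKM in iHB, 161 and 18.3 in iHP, and 42.1 and 979 in iBEC. The order of libraries was the same for both calprotectin genes. Together they made up between 56.4% and 75.5% of the summed RPKM of the 10 members.

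**Figure D1:**
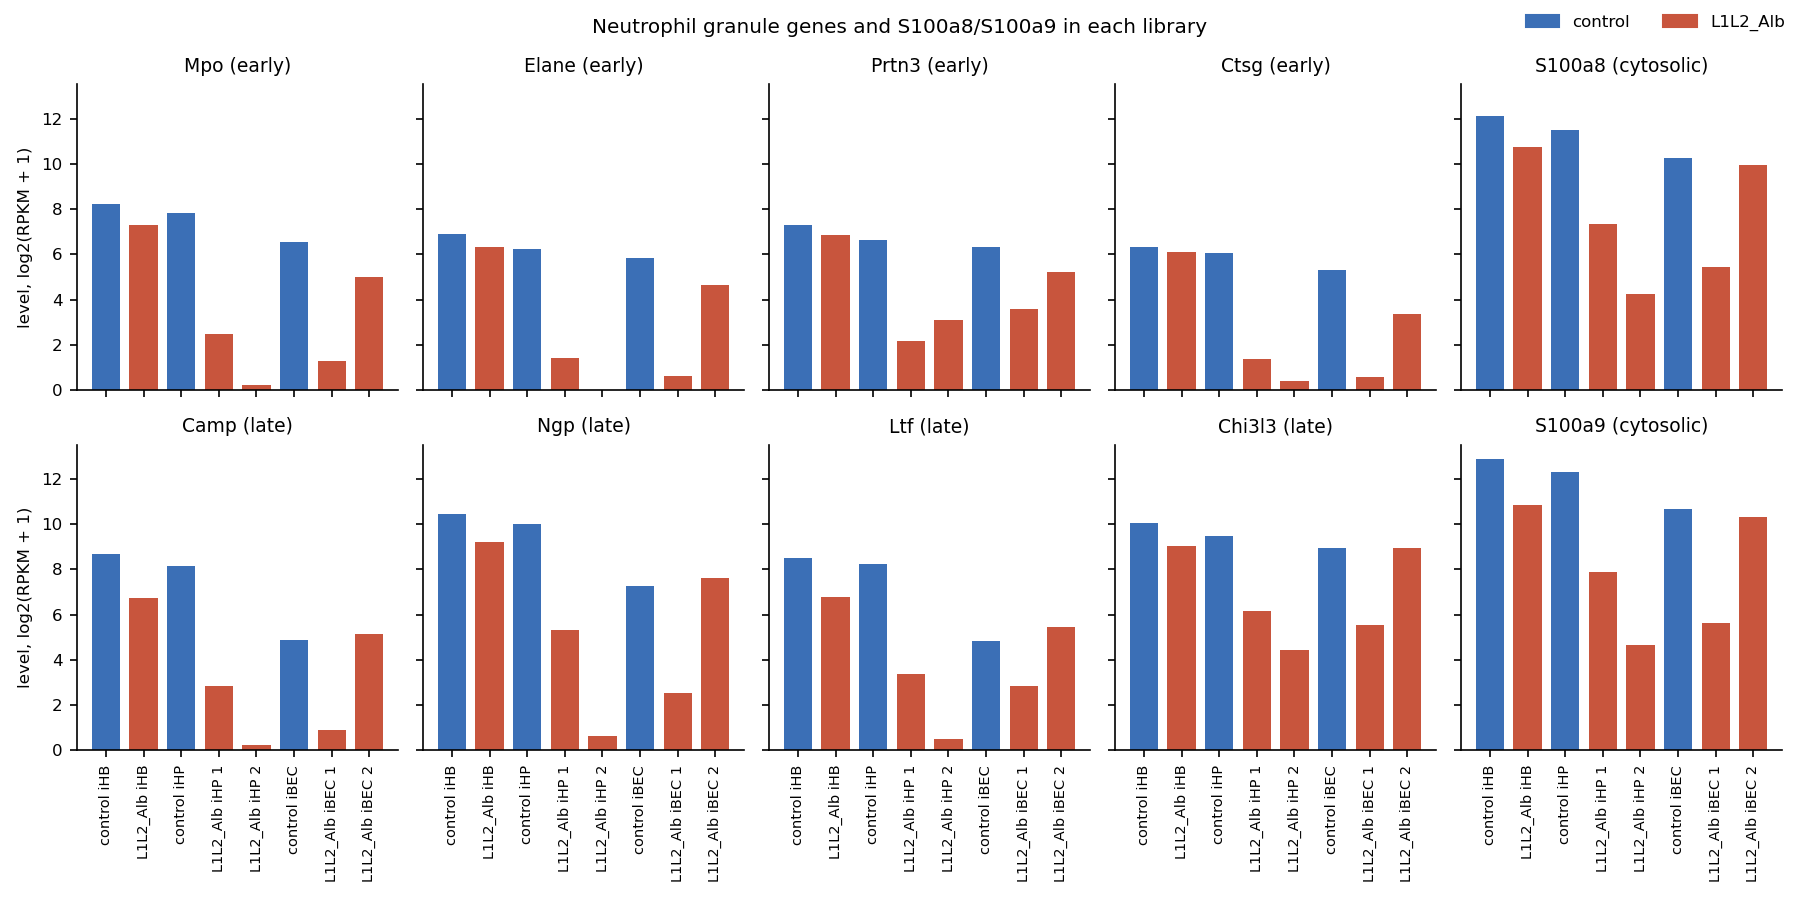
Level of each member in each of the 8 libraries, as log2(RPKM + 1) on the y axis, 1 bar per library, with control libraries in blue and L1L2_Alb libraries in red. L1L2_Alb iHP 1, iHP 2 and iBEC 1 have the lowest bars in every panel, and Elane has no bar in L1L2_Alb iHP 2 because it was at 0.

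The promoters of the members are shown because the 10 genes varied together over the libraries. Sequences are those of RefSeq on GRCm38.p6, the 250 bases before each gene's start, in the gene's own direction, and all 10 members matched, Chi3l3 as Chil3. Capitals mark matches on either strand to GGAAGT, the core of an Ets-family site, or to GAGGAAGT, a form preferred by PU.1, the myeloid Ets factor, or to TTNNGNAA, a form of the C/EBP site. The GAGGAAGT letters contain those of GGAAGT. The letters were chosen after some of the sequences had been read, so any difference in them between early and late genes is a description only. Of the late genes not printed, Camp matched none of these letters, whereas Chi3l3 matched both GGAAGT and TTNNGNAA. The promoters of the 4 early genes and of the late genes Ngp and Ltf were as follows.
Mpo, chr11:87793534-87793783, plus strand: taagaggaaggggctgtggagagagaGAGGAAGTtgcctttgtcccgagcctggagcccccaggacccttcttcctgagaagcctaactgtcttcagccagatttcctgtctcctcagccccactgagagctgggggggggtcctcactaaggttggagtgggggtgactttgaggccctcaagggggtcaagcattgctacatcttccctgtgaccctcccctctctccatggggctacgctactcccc
Elane, chr10:79886062-79886311, plus strand: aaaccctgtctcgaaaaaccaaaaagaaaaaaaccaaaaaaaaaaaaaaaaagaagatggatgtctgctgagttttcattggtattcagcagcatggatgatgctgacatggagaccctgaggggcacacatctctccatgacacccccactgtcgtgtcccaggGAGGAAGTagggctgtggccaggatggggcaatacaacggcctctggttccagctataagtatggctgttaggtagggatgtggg
Prtn3, chr10:79879417-79879666, plus strand: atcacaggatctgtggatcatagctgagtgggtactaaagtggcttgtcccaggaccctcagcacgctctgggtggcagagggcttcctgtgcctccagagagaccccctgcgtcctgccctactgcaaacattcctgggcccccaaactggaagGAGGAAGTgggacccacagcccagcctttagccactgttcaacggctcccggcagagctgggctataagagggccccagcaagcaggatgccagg
Ctsg, chr14:56102575-56102824, minus strand: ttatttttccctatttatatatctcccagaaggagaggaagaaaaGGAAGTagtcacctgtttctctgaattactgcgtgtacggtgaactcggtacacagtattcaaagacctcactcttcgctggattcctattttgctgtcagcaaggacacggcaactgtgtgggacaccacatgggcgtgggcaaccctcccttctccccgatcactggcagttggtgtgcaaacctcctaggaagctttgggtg
Ngp, chr9:110419558-110419807, plus strand: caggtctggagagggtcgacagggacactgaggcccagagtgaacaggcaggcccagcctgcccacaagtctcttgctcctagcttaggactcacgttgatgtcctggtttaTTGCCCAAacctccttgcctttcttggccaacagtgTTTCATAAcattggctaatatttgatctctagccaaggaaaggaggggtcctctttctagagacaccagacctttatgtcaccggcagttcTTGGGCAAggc
Ltf, chr9:111019042-111019291, plus strand: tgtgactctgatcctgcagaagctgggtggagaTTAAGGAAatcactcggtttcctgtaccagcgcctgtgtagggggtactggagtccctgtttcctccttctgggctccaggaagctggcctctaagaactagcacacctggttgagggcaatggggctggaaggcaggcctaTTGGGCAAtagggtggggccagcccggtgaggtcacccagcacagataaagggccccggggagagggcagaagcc

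GGAAGT was found in the promoters of all 4 early genes and in 3 of the other 6, S100a8, S100a9 and Chi3l3. Over the 32851 promoter windows of the same length in the reference table, 19.7% held it. The longer GAGGAAGT was found in 3 of the 4 early genes, Mpo, Elane and Prtn3, and in S100a8, and 2.44% of all windows held it. In Elane it began at position -85 from the start, and in Prtn3 at -95. TTNNGNAA was found in none of the 4 early genes and in 5 of the other 6, all but Camp, whereas 36.8% of all windows held it. AACNG, the core of a Myb site, was found in all 10 members, and 74.2% of all windows held it. These matches describe letters in the windows and were not tested as binding sites.

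The question put to the genotype comparison was whether L1L2_Alb cultures held less neutrophil RNA than controls once stage was taken into account. All 10 members were lower in L1L2_Alb, with fitted differences between -3.85 and -2.27 in log2(RPKM + 1), but none passed the threshold. Mpo differed by -3.85 ± 1.11 (SE, 8 libraries; limma adjusted p = 0.0673), Elane by -3.32 ± 1.04 (limma adjusted p = 0.0840) and Ctsg by -3.17 ± 0.88 (limma adjusted p = 0.0588). Prtn3 had the smallest difference of the 10, -2.27, and with the smallest SE, 0.63, its limma adjusted p was 0.0598. Among the late genes, the differences were -3.67 ± 1.54 for Ngp (limma adjusted p = 0.174), -3.62 ± 1.22 for Camp (0.103), -3.00 ± 1.13 for Ltf (0.137) and -2.42 ± 0.85 for Chi3l3 (0.113). S100a9 differed by -3.72 ± 1.21 (limma adjusted p = 0.0931) and S100a8 by -3.38 ± 1.19 (limma adjusted p = 0.113).

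The count of members called by limma at an adjusted p under 0.05 was therefore 0 of 10, beside 9.57% of all 13421 genes tested in either direction and 3.37% in the lower direction. At an unadjusted p under 0.05 all 10 members were lower, beside 10.2% of all genes. The median difference of the members was -3.35, against 0.06 over all genes tested. Of the 10 members, 7 were lower than the control of the same stage in all 5 L1L2_Alb libraries. Camp, Ngp and Ltf were lower in 4 of the 5, the exception being L1L2_Alb iBEC 2. For all 10, the lowest control level lay below the highest L1L2_Alb level. These were from different stages, control iBEC and L1L2_Alb iHB, so that overlap includes the difference between stages. The share of all genes tested that did the same was not worked out, so these counts of libraries and overlaps are a description. Without L1L2_Alb iBEC replicate 2, 5 members fell past the threshold, namely S100a9, Camp, Chi3l3, Mpo and Elane, beside 2.33% of all genes called lower in the same fit. With that library left out, the 1 remaining L1L2_Alb iBEC library is assumed to vary like the other groups.

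**Figure D2:**
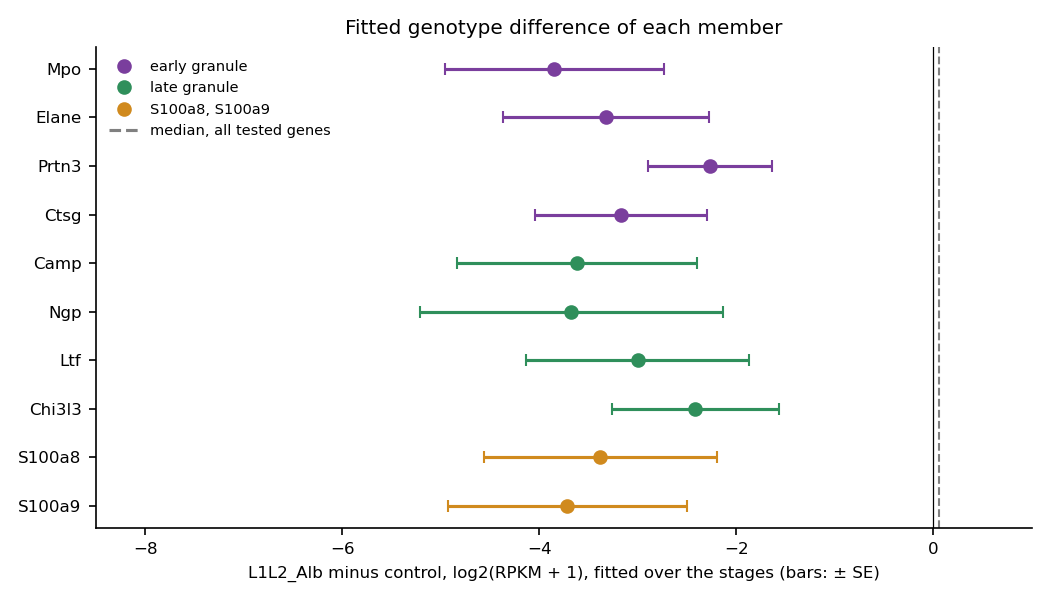
Fitted L1L2_Alb minus control difference of each member in log2(RPKM + 1) on the x axis, with points for the estimates and bars of ± 1 SE from limma over 8 libraries. All 10 estimates lie between -3.85 and -2.27, and the dashed line marks the median of all genes tested, 0.06.

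The spread within the pairs of L1L2_Alb libraries was large for these genes. All 10 members were higher in iBEC 2 than in iBEC 1, and 10 of 10 were at least 2-fold lower in iBEC 1 on log2(RPKM + 1), beside 2.19% of all genes tested. The fold was smallest for Prtn3, 3.33 with a 95% counting interval of 2.90 to 3.82, and largest for Elane, 44.7 with an interval of 25.9 to 84.5. The SD of the iBEC pair had a median of 2.74 over the members in log2(RPKM + 1), against 0.17 over all genes. In the iHP pair the median SD was 1.72 over the members and 0.30 over all genes. Of the 10 members, 9 were lower in iHP 2 than in iHP 1, and 8 were at least 2-fold lower on log2(RPKM + 1), beside 8.01% of all genes tested. Elane aside, which was at 0 in iHP 2, Ngp had the largest fold, 67.9 with a counting interval of 40.3 to 125. Intervals here cover counting error only.

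Stage by stage, the early genes kept more of their control level than the late genes in the hepatoblast cultures, by a narrow margin. In L1L2_Alb iHB the 4 early genes kept between 52.2% and 83.7% of their control iHB level, with Mpo lowest and Ctsg highest. The 4 late genes kept between 25.9% and 48.6%, and S100a8 and S100a9 kept 38.5% and 24.7%. No early gene overlapped the other 6 in this comparison. At least 2-fold lower on log2(RPKM + 1) were 6 of the 10 members, none of them an early gene, beside 8.99% of all genes tested. As there was 1 library per genotype at this stage, the difference had no replicate check. The mean log2(RPKM + 1) of the late genes exceeded that of the early genes by 2.23 in control iHB and 1.29 in L1L2_Alb iHB. Within the iHP and iBEC pairs this excess had a pooled SD of 1.09.

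In the iHP cultures all 10 members were at least 2-fold lower in both L1L2_Alb libraries than in control iHP. The share of all genes past that fold was 10.9% for library 1 and 15.2% for library 2. In library 1 the members kept between 2.01% and 9.83% of the control level, with Mpo lowest and Chi3l3 highest. In library 2 they kept between 0% and 7.47%, with Elane lowest and Prtn3 highest, and 6 of the 10 were below 1 RPKM. Early and late genes overlapped in both libraries.

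In the iBEC cultures the 2 L1L2_Alb libraries differed. In library 1 all 10 members were at least 2-fold lower than in control iBEC, beside 3.2% of all genes tested, and kept between 0.979% and 22.0% of the control level. In library 2 only the 4 early genes were at least 2-fold lower, beside 2.31% of all genes tested. Those 4 kept between 23.9% and 46.7% of the control level, with Ctsg lowest. The late genes stood at between 99.7% and 157% of control iBEC, and S100a8 and S100a9 at 80.4% and 78.5%. No early gene overlapped the other 6 in this library, and here the early genes were the lower group, the reverse of iHB.

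Within the controls, the iHP and iBEC libraries differed from iHB in the members by unequal amounts. Control iHP kept between 61.9% and 83.2% of the control iHB level, and 0 of the 10 members were 2-fold lower, beside 1.65% of all genes tested. Control iBEC kept between 6.84% and 51.1%, and 9 of the 10 members were at least 2-fold lower on log2(RPKM + 1), beside 14.9% of all genes. Camp, Ltf and Ngp kept 6.84%, 7.63% and 10.8%, whereas Prtn3, Ctsg, Elane and Chi3l3 kept 51.1%, 48.0%, 46.6% and 46.1%. Between these groups lay the early gene Mpo at 31.1%, S100a8 at 27.5% and S100a9 at 21.6%. Camp, Ltf and Ngp thus lay below all 4 early genes. Each stage had 1 control library. The stages also differ in days of culture, substrate and Oncostatin M, so these and differentiation cannot be told apart.

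**Figure D3:**
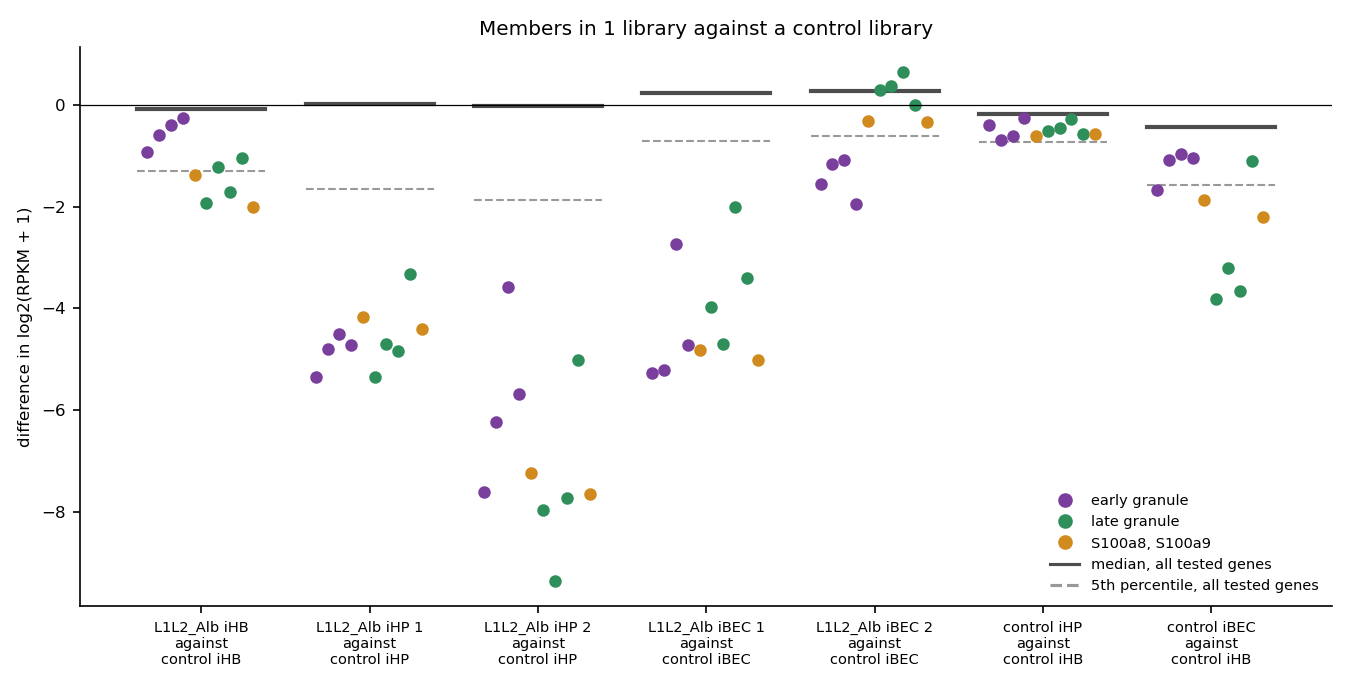
Difference in log2(RPKM + 1) of each member between 1 library and a control library (y axis) for 7 comparisons (x axis), with early genes in purple, late genes in green and S100a8 and S100a9 in orange. Solid bars mark the median of all genes tested and dashed bars their 5th percentile; early genes lie above the others in L1L2_Alb iHB and below them in L1L2_Alb iBEC 2.

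Fitted over both genotypes, the stage differences of the members did not pass the threshold. Against iHB, the 10 members were lower in iHP, with differences between -3.91 and -2.44 in log2(RPKM + 1), with 0 of 10 called (smallest limma adjusted p = 0.420) beside 0% of all genes tested. At an unadjusted p under 0.05, 5 of the 10 were lower, beside 6.49% of all genes, and limma gave 1158 of all 13421 genes such a p in either direction. The 2 genotypes were unlike in this comparison. Control iHP kept between 61.9% and 83.2% of the members' control iHB level. Of the L1L2_Alb iHB level, L1L2_Alb iHP 1 kept between 2.16% and 13.5%, and iHP 2 between 0% and 6.38%. In iBEC the members were lower than in iHB, with differences between -3.48 and -1.33 and 0 of 10 called (smallest limma adjusted p = 0.189) beside 5.72% of all genes tested. Of the 10, 1 was lower at an unadjusted p under 0.05, beside 17.9% of all genes.

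The genotype difference of the members was also tested for a change between stages, in a fit with a term for each of the 6 conditions and 2 residual degrees of freedom. The limma F test called 0 of the 10 members at an adjusted p under 0.05, beside 0% of all genes. At an unadjusted p under 0.05 it gave 3 members, Ctsg, Ltf and Prtn3, beside 5.46% of all genes. The limma adjusted p was 0.843 for Ctsg, 0.863 for Ltf and 0.773 for Prtn3.

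The balance of late to early granule genes differed within the iHP pair by nearly as much as over all 8 libraries. The mean log2(RPKM + 1) of the 4 late genes exceeded that of the 4 early genes by 2.23 in control iHB, 2.27 in control iHP and 0.47 in control iBEC. In L1L2_Alb the excess was 1.29 in iHB, 2.56 and 0.53 in iHP libraries 1 and 2, and 1.42 and 2.23 in iBEC libraries 1 and 2. Within the pairs this excess varied with a pooled SD of 1.09, and the 8 values spanned 0.47 to 2.56. As summed RPKM, the late to early ratio ran from 2.62 in control iBEC to 11.0 in L1L2_Alb iHP 1. The ratio was nearly equal in control iHB and control iHP, at 4.95 and 4.96. In the lowest libraries the early sum rested on few reads, 332 in L1L2_Alb iHP 1 and 170 in iHP 2, of which 154 were from Prtn3.

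**Figure D4:**
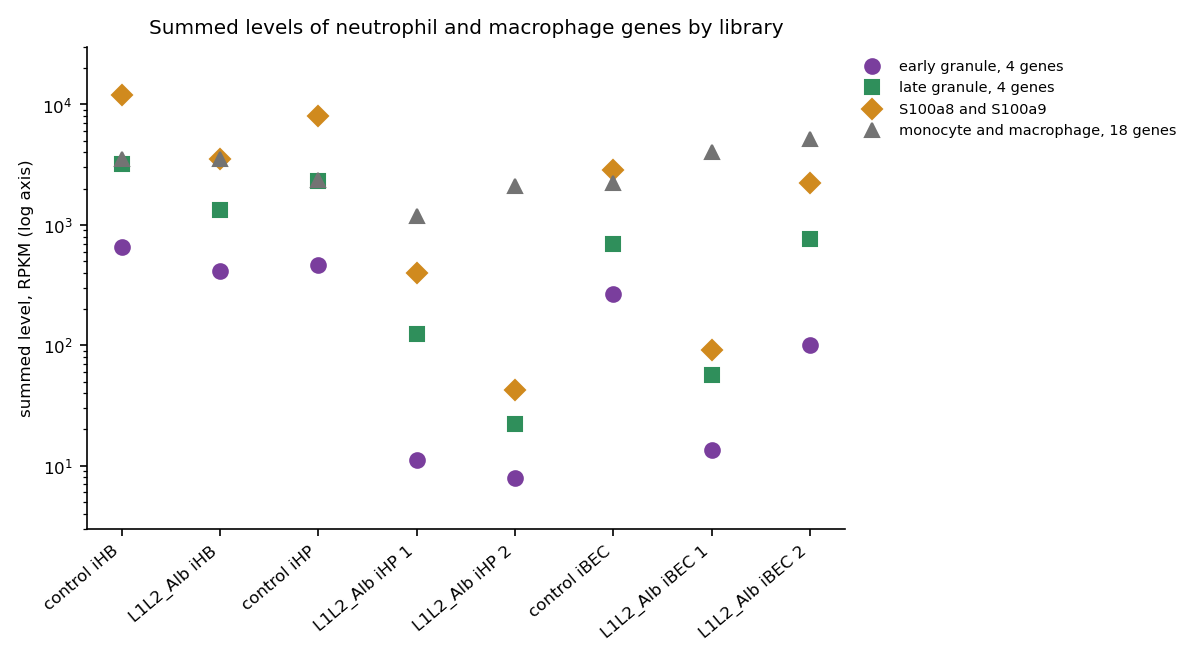
Summed RPKM (log axis) of the 4 early genes, the 4 late genes, S100a8 with S100a9, and 18 monocyte and macrophage genes in each of the 8 libraries. The early sum is lowest in L1L2_Alb iHP 1, iHP 2 and iBEC 1, between 7.94 and 13.5 RPKM, while the macrophage sum in these 3 libraries is 1179, 2123 and 4040 RPKM.

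Over the 8 libraries the members resembled each other closely in pattern. Pearson's r on log2(RPKM + 1) was between 0.93 and 0.99 for the 6 pairs of early genes and between 0.94 and 1.00 for the 15 pairs among the other 6. For the 24 pairs of an early with another gene it was between 0.85 and 0.99. All pairs share the same 8 libraries and the 3 low ones, so these values are a description. Among all other genes that passed the same filter, the 10 most like the mean of the 4 early genes were Ms4a3, Fcnb, Trem3, Ifitm6, Clec4b2, Tnfsf14, Gfi1, Cebpe, Rab27a and Gm16894, with r from 0.99 to 0.97. Of these, Fcnb encodes ficolin B, and Gfi1 and Cebpe encode transcription factors of granulocyte maturation. Those most like the mean of the other 6 members were Stfa1, BC100530, Gm5483, Stfa2l1, Csf3r, Mmp8, Retnlg, Slc25a38, Stfa3 and Trem3, with r from 1.00 to 0.98. Csf3r encodes the receptor of the granulocyte colony-stimulating factor and Mmp8 neutrophil collagenase. The stefin genes Stfa1, Stfa2l1, Stfa3, BC100530 and Gm5483 are near-identical copies, and how reads were divided among them is uncertain.

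Other neutrophil genes were read beside the members. The lists were chosen with earlier results of these data known, so their direction is a description and not an independent check. Of 15 other genes of early neutrophil precursors, 14 were lower in L1L2_Alb in the genotype fit and 5 fell past the threshold (limma), beside 3.37% of all genes, while none rose. The list's median difference was -1.29, against 0.06 over all genes. The 5 were Ms4a3 (-2.84 ± 0.66), Ctsc (-1.29 ± 0.30), which encodes the protease that activates the granule serine proteases, Myb (-2.11 ± 0.44), Nkg7 (-1.43 ± 0.32) and Cst7 (-2.18 ± 0.42). The 3 most abundant genes of this list, Plac8, Igfbp4 and Srgn, had adjusted p of 0.124, 0.0747 and 0.312 from limma. Ctsc rose in iBEC against iHB, by 1.74 ± 0.38 (limma adjusted p = 0.0341), in the direction opposite to the members.

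Of 24 other late neutrophil genes, 22 were lower in L1L2_Alb, 4 fell past the threshold (limma), beside 3.37% of all genes, and 1 rose. The list's median difference was -1.91, against 0.06 over all genes. Those that fell were Hp (-2.57 ± 0.40), Lcn2 (-1.87 ± 0.44), Orm2 (-3.04 ± 0.50) and Ltb4r1 (-1.94 ± 0.47). Hp, Lcn2 and Orm2, which encode haptoglobin, lipocalin 2 and orosomucoid 2, are also hepatocyte acute-phase genes, and Hp and Orm2 rose in iBEC against iHB by 3.68 and 7.93. Anxa1, a widely expressed annexin, rose in L1L2_Alb by 1.88 ± 0.31. Stfa1, of the same list, was at 1903 RPKM in control iHB, 1339 in control iHP and 374 in control iBEC. In L1L2_Alb, Stfa1 was at 855 RPKM in iHB, 76.6 and 7.19 in iHP, and 13.5 and 358 in iBEC. Its genotype difference of -3.26 ± 1.24 was not called (limma adjusted p = 0.138). In iBEC against iHB, Fpr1, the formyl peptide receptor, fell by 2.94 ± 0.69. Of the 6 NADPH oxidase genes, which neutrophils share with macrophages, 5 were lower in L1L2_Alb, with a median of -0.92. None of the 6 was called, beside 9.57% of all genes in either direction. Their most abundant members, Cyba, Ncf1 and Ncf4, differed by 0.23, -0.97 and -1.04. In iBEC against iHB, Ncf4 fell by 2.16 ± 0.50.

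Macrophage genes were read beside them because macrophages also live in the fetal liver and share several myeloid genes. Of 16 monocyte and macrophage genes tested, 7 were lower and 9 higher in L1L2_Alb, with a median difference of 0.15. Of these, 2 were called, both lower, beside 3.37% of all genes. The 2 were monocyte genes, Ly6c2 (-2.31 ± 0.46) and Ccr2 (-1.83 ± 0.32), the latter encoding a chemokine receptor and also called lower in iBEC against iHB. The most abundant of the list, Lyz2, C1qc and C1qb, differed by 0.15, 0.27 and 0.24 in the genotype fit. In L1L2_Alb iBEC 1, where the 10 members kept 4.26% of their summed control RPKM, the 18 macrophage genes in the table stood at 181% of theirs. In L1L2_Alb iHP 2 the members kept 0.676% and the macrophage genes 90.8%. In L1L2_Alb iHP 1 both were lower, the members at 4.97% and the macrophage genes at 50.4%. No test of the difference between the lists was made, and the part of macrophages in the levels of Chi3l3, S100a8 and S100a9 was not tested.

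All 15 general leukocyte genes were lower in L1L2_Alb in the genotype fit, with a median difference of -0.61, against 0.06 over all genes. None of the 15 was called, beside 9.57% of all genes in either direction. Tyrobp, Fcer1g and Laptm5 led the list by level and differed by -0.23, -0.34 and -0.57. The direction was not shared by all stages. The list's summed RPKM stood at 68.5% of control in L1L2_Alb iHB and at 28.9% and 40.7% in iHP libraries 1 and 2. In iBEC libraries 1 and 2 it stood at 132% and 142%. Among 11 myeloid transcription factors 9 were lower and 1 was called, beside 9.57% of all genes in either direction. The 1 called was Myb, the factor of immature blood cells named above. Sfpi1, which encodes PU.1, differed by -0.71 ± 0.34 (limma adjusted p = 0.232), Klf4 by 1.76 ± 0.46 (limma adjusted p = 0.0517) and Cebpb by -0.24. In iBEC against iHB, Cebpd rose by 1.36 ± 0.27. Cebpe, needed for secondary granule genes, was at 26.2 RPKM in control iHB, 15.6 in control iHP, 4.55 in control iBEC and 13.0 in L1L2_Alb iHB. In the L1L2_Alb pairs Cebpe was at 0.31 and 0.15 RPKM in iHP and at 0.12 and 2.88 RPKM in iBEC, low in the 3 libraries in which the members were low.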

How the data were processed

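RNA-seq was made from total RNA of 8 cultures with an Illumina TruSeq library kit. Per the labels, the authors aligned reads with Bowtie 0.12.2 to the mouse build mm8, and they deposited a table of 1 value per gene and library, which by its steps is RPKM. The counter and gene models are not given in the sources used here. The values are not counts, so no count model was run. Library totals and members' reads were recovered from values of short RNA genes of known RefSeq length and from the gene length that made a member's 8 values whole within 0.005 reads. Of 23471 entries, 4 with a repeated symbol were left out. Groups followed GEO's labels.

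Values were analysed as log2(RPKM + 1) for the 13421 genes averaging 1 RPKM or more. The model, stage plus genotype, was fitted with limma 3.58.1 in R 4.3.3 with a mean-variance trend over all genes and 8 libraries, and p-values were adjusted by Benjamini-Hochberg with a threshold of 0.05. Fold changes on this scale understate those of low genes. The interaction was a limma F test over 6 conditions. Comparisons of single libraries used a 2-fold difference on the same scale, without a test, and exact binomial 95% intervals on recovered reads. On simulated data with 200 changed genes, the genotype fit over 13421 genes recovered 90% of log2 changes of 2. It recovered 92% of those of -4 and 40% of those of 1. The changed genes were drawn at random from all genes tested. Within the pairs the members spread more, with a median SD of 1.72 in iHP and 2.74 in iBEC against 0.30 and 0.17 over all genes. These shares therefore do not give the recovery for the members.

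Members and gene lists were chosen with earlier results of these data known. Named outside the members were the 3 most abundant tested genes of each list, up to 5 called genes a list, and the 10 genes most like the early and the other members. Motifs were searched in RefSeq windows on GRCm38.p6; since the files use mm8, no coordinate of theirs was used. Python 3.11.15 with numpy 2.4.6 and matplotlib 3.10.9 made the tables and plots. Alternatives were another pseudocount, scaling, filter and variance model, averaged pairs, a replicate block, and leaving out libraries or stages.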

Additional observations from a re-analysis of the deposited data

How the results depend on the processing

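The count of members called for genotype was 0 and became 1 with quantile normalization (Prtn3), 1 with averaged pairs (S100a9), 1 without stage iHB (Ctsg) and 1 without stage iBEC (Camp). Leaving out single L1L2_Alb libraries gave between 0 and 5, the 5 without L1L2_Alb iBEC replicate 2, where one library decides the call. A pseudocount of 0.1, upper-quartile scaling, no filter, a filter at 5 RPKM, eBayes without trend, a replicate block and leaving out stage iHP left it at 0. Over 15 alternatives the genotype difference stayed negative in all 150 values, between -4.94 and -1.13, with limma adjusted p from 0.0394 to 0.603. The counts for both stage comparisons stayed at 0, as did that for the interaction under another pseudocount, scaling, filter and variance model, alternatives added after the data were seen. The late minus early excess moved by less than the pooled SD of the pairs under another pseudocount and both scalings. Numbers 1 and 2 of the iHP and iBEC libraries are not known to pair them (correlation of their differences -0.02), and with the replicate block 0 members and 1154 genes were called for genotype, against 1284 without it.

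Over all genes, calls for genotype ran from 132 (without stage iHP) to 1396 (without stage iBEC), with 686 without a filter, 326 without stage iHB, and between 793 and 1227 on leaving out single libraries. Calls for iBEC against iHB ran from 488 (without L1L2_Alb iBEC replicate 2) to 1739 (without L1L2_Alb iHP replicate 2), with 492 without a filter, and for iHP against iHB from 0 to 4. Of the genotype calls 832 of 1284 were higher in L1L2_Alb, 586 of 1193 with upper-quartile scaling and 687 of 1294 with quantile normalization. The single control library of each stage limits every comparison here, since the spread between cultures was seen only in the L1L2_Alb pairs. Members below 1 RPKM in L1L2_Alb iHP 2 and iBEC 1 rest on few reads.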

Other observations

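Genes of other granulocytes and of red cells were also lower in several L1L2_Alb libraries, but not in all. In L1L2_Alb iBEC libraries 1 and 2 the mast cell and basophil genes summed to 209% and 178% of control iBEC. The erythroid genes summed to 56.4% and 125%. Few of the listed genes passed the filter for testing, 2 of 10 eosinophil, 4 of 12 mast cell and basophil, and 4 of 13 erythroid genes. Beside the list counts below, the genotype fit called 9.57% of all genes tested in either direction and 3.37% lower. For iBEC against iHB it called 5.72% in either direction. Prg2, which encodes the eosinophil major basic protein, fell by 3.74 ± 0.64 in the genotype fit (limma adjusted p = 0.0119) and was at 108 RPKM in control iHB, 50.6 in control iHP and 2.94 in control iBEC. In L1L2_Alb, Prg2 was at 3.12 RPKM in iHB, 0.45 and 0.22 in iHP, and 0.14 and 0.80 in iBEC, low in L1L2_Alb iHB too, the library in which the early granule genes kept between 52.2% and 83.7% of their control level. It was 1 of 2 eosinophil granule genes tested, and the other, Ear2, differed by -0.86 and was not called. Of 4 mast cell and basophil genes tested none was called. The most abundant were Hdc (-1.13), Mcpt8 (0.19) and Cpa3, a mast cell carboxypeptidase, at -2.07 ± 0.56 (limma adjusted p = 0.0555). Of 4 erythroid genes tested, Hbb-b1 and Hbb-b2, which encode beta globins, fell by 2.09 and 2.44 and passed the threshold, and the alpha globin genes Hba-a1 and Hba-a2 differed by -1.38 each. All 4 fell in iBEC against iHB, by between 2.95 and 3.68. Near-identical globin copies make the split between them uncertain. Of 2 lymphocyte genes tested, Nkg7, also a gene of early neutrophil precursors, fell by 1.43, and Il7r differed by 0.18.

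Of 8 tested genes for cytokines that act on granulocyte production or recruitment, 1 was called, beside 9.57% of all genes in either direction. It was Kitl, which encodes stem cell factor and rose in L1L2_Alb by 1.50 ± 0.25 (limma adjusted p = 0.0116). Csf1 differed by -0.32 and Cxcl1, a neutrophil chemoattractant, by -2.06 ± 0.79 (limma adjusted p = 0.142). In iBEC against iHB, Kitl and Il1b fell, with differences of -1.67 and -2.74. Of 7 hepatoblast and hepatocyte genes 3 fell in L1L2_Alb, Alb, Hnf4a and Ttr, by 1.71, 1.33 and 1.95. Of 5 biliary genes, Krt7 and Krt19 rose by 2.17 and 1.31 and Spp1 fell by 1.50. Afp and Krt8 differed by 0.07 and 0.78 in the same fit. In iBEC against iHB, Alb and Hnf4a rose by 2.37 and 1.00 while Afp, Krt8 and Krt18 fell, with differences of -1.78, -1.81 and -1.33. Spp1 rose by 3.99 and Krt7 fell by 2.13.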
